A study of Rattus norvegicus with 102 samples.

Results

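The comparison asked which transcripts of hippocampal area CA1 differed between aged rats that remembered a hidden platform poorly and aged rats that remembered it well. Its members were the 24 CA1 libraries of aged rats among 102 libraries in all, chosen by the cognitive status that the sample labels give. The aged-impaired (AI) and the aged-unimpaired (AU) group held 12 rats each. The series covers 34 male Fischer 344 rats, an inbred strain, from which CA1, CA3 and the dentate gyrus (DG) were dissected and poly-A RNA was sequenced on an Ion Proton. AI and AU rats were both 17 to 22 months old, had no treatment or transgene named in their labels, and were separated by how strongly they preferred the goal quadrant on a probe trial of the Morris water maze. A group of 10 young rats, 5 to 6 months old, was trained in the same maze, and its CA1 libraries serve here as a description of the young level. The status is a behavioural class cut from a continuous score, and the CA1 blocks were cut by hand along the length of 1 hippocampus per rat, with CA2 not collected on its own, which limits both groups as a model of CA1 pyramidal cells alone. Rat identifiers fall into a series beginning with R9 and a series beginning with R1 or R2. The first held 5 AI and 6 AU rats and the second held 7 AI and 6 AU rats, and the series was a covariate in every fit unless stated.

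CA1 is the output field of the hippocampal circuit. Its pyramidal cells receive excitatory input from CA3 and the entorhinal cortex and project to the subiculum, and strengthening of these synapses depends on calcium entry through NMDA receptors and voltage-gated channels and on calcium-activated kinases such as CaMKII and PKC. Calcium regulation, NMDA receptor function and synaptic plasticity in CA1 are known to alter with age, and water maze performance depends on the hippocampus. In bulk tissue such as this, fewer cells of a type and less RNA per cell cannot be told apart.

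Several libraries stood apart on tissue markers or on genes at 0, and they were picked out after the data were seen. The values are normalized counts, that is, reads per gene divided by a size factor for the library. The CA1 library of AU rat R9869 held a summed normalized count of 12419 over 7 striatal markers, against 699 to 1818 in the other 23 libraries, and of 2387 over 8 CA1 pyramidal markers, against 9391 to 22190. Drd2, the D2 dopamine receptor, was at 974 there, against at most 291 in the others, and Adora2a, an adenosine receptor of striatal projection neurons, was at 1231, against at most 133. Wfs1, a defining CA1 gene, was at 1177 in that library, against at least 1781 in the other CA1 libraries, and at 6394 in the DG library of the same rat, above the highest of the other aged DG libraries (5863). The library labelled CA1 of AU rat R9869 therefore went against its label on these markers. In a further 3 libraries many abundant genes were at 0. Of 12413 genes whose mean normalized count was at least 50, 230 were at 0 in AU rat R2232, 119 in AU rat R2230 and 53 in AI rat R9874, against 0 to 10 in the other 21. Their depths were 5360495, 6792041 and 9351266 recovered reads, in a range of 5360495 to 21467303 over the 24 libraries. Choroid plexus transcripts were summed to 174512 in AI rat R9870 and 140351 in AU rat R9865, against at most 22521 in the others. Fits without the first 4 of these libraries (AU R9869, R2230 and R2232 and AI R9874) are called the 20-library values and are given beside the results that rest on them. Defining markers of CA1 pyramidal cells were above 0 in all 24 libraries.

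**Figure D1:**
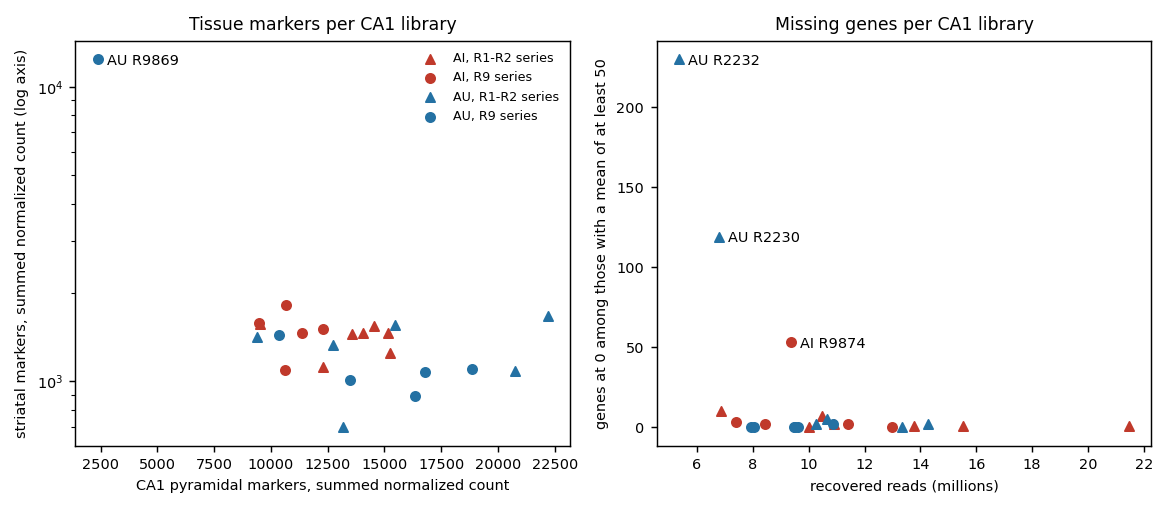
Left, the summed normalized count of 7 striatal markers (log axis) against that of 8 CA1 pyramidal markers, 1 point per CA1 library of an aged rat. Right, the number of genes at 0 among 12413 genes with a mean of at least 50, against recovered reads. Colours give AI and AU and symbols the identifier series. AU R9869 lies alone at upper left, and AI R9874, AU R2230 and AU R2232 lie above all other libraries at right.

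No gene differed between AI and AU rats in CA1 beyond the spread between rats after correction. With limma on log2(normalized count + 1), 0 of 16406 genes passed an adjusted p of 0.05 (0% called), and the smallest adjusted p was 0.992. At an unadjusted p under 0.05 there were 430 genes. Of these, 296 were higher in AI rats (1.80% of genes tested) and 134 were lower (0.817%). At an unadjusted p under 0.01 there were 77. The totals of 430 and 77 were below the shares of 0.05 and 0.01 of genes that these thresholds would pass with no difference between the groups. Count models on the recovered reads gave 0 genes with edgeR (425 at an unadjusted p under 0.05) and 1 gene with DESeq2 (522 at an unadjusted p under 0.05), Ipcef1, at an adjusted p of 0.0403. In the 20-library values limma again called 0 genes (508 at an unadjusted p under 0.05), with a smallest adjusted p of 0.535, edgeR called 0 (537 at an unadjusted p under 0.05) and DESeq2 called 8. The ranges of the AI and AU rats overlapped for all 16406 genes tested, so that 0% of genes had groups that did not overlap. The median log2 fold change over all genes was 0.02, and the median standard error of a gene was 0.19 on the same scale. The genes named next are the 12 with the smallest p in each direction, and their differences are values that did not pass the test.

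**Figure D2:**
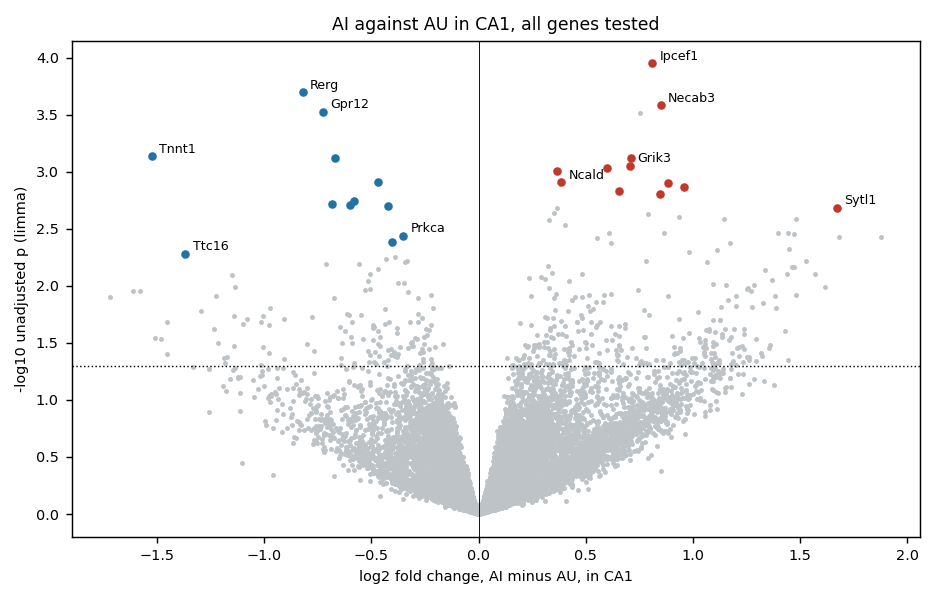
Log2 fold change (AI minus AU) in CA1 against −log10 of the unadjusted limma p for 16406 genes. The 12 leading genes in each direction are red (higher in AI) and blue (lower in AI), and the dotted line marks an unadjusted p of 0.05. No gene passed the adjusted threshold.

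Ipcef1 encodes a partner of the cytohesin exchange factors that activate ARF6, a small GTPase of membrane traffic. In CA1 its normalized count ranged from 69.1 to 263 with a median of 135 in AI rats, from 34.4 to 143 with a median of 71.7 in AU rats, and from 39.5 to 306 with a median of 109 in young rats. Of the 12 AI rats, 11 lay above the AU median, yet the ranges overlapped and the young rats spanned both. The log2 fold change was 0.81 (95% interval 0.44 to 1.18), with an unadjusted p of 0.000112 and an adjusted p of 0.992 by limma. Fitted by series, it was 1.03 (R9) and 0.62 (R1-R2). In the 20-library values the log2 fold change of Ipcef1 was 0.88, with an adjusted p of 0.535 by limma and of 0.0226 by DESeq2.

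Necab3, Ncald, Camk2d and Grik3 were among the leading genes with a higher mean in AI rats. Necab3, an EF-hand calcium-binding protein, had counts of 320 to 888 (median 525) in AI rats and of 105 to 490 (median 347) in AU rats, and 11 AI rats lay above the AU median. Its log2 fold change was 0.85 ± 0.20 (SE), and it was 0.54 in the 20-library values. Ncald, the neuronal calcium sensor neurocalcin delta, had counts of 3672 to 5393 (median 4789) in AI rats and of 2358 to 5045 (median 3568) in AU rats. All 12 AI rats lay above the AU median for Ncald, although AU rats reached into the AI range, and its log2 fold change was 0.39 ± 0.11, or 0.24 in the 20-library values. Camk2d, the delta subunit of CaMKII, had counts of 380 to 1322 (median 698) in AI rats and of 285 to 613 (median 493) in AU rats. The highest AI rats exceeded every AU rat for Camk2d, while the lowest AI rats lay inside the AU range, and the log2 fold change was 0.60 ± 0.16. Grik3, the kainate receptor subunit GluK3, had counts of 264 to 752 (median 431) in AI rats and of 153 to 400 (median 274) in AU rats, with a log2 fold change of 0.71 ± 0.19 and of 0.61 in the 20-library values.

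Ntng1, the axonal adhesion protein netrin-G1, had counts of 360 to 780 (median 576) in AI rats and of 187 to 806 (median 267) in AU rats. All 12 AI rats were above the AU median for Ntng1, and the highest of all 24 rats was an AU rat. Its log2 fold change was 0.65 ± 0.18, with 1.11 among R9 rats and 0.27 among R1-R2 rats. Cckbr, the cholecystokinin B receptor, had counts of 87.3 to 491 (median 152) in AI rats and of 49.9 to 159 (median 98.3) in AU rats, with a log2 fold change of 0.85 ± 0.24. Tshz3, a zinc finger transcription factor, had counts of 171 to 661 (median 270) in AI rats and of 75.8 to 362 (median 156) in AU rats, with a log2 fold change of 0.96 ± 0.27. For both Cckbr and Tshz3 the AI group was also the more spread, which rested on AI rats R9870 and R9874, whose libraries stood apart. They had 491 and 302 counts of Cckbr and 631 and 661 of Tshz3. The other AI rats reached at most 216 and 418. Tmem163, a zinc transporter of synaptic vesicles, Zmat4, a zinc finger protein, and Igfbp5, which binds insulin-like growth factors, had log2 fold changes of 0.88, 0.71 and 0.37. Sytl1, a synaptotagmin-like Rab27 effector, had the largest log2 fold change of the 12, 1.67 ± 0.49, at a low level, with a median of 16.2 counts in AI and 6.30 in AU rats. It was 0.99 in the 20-library values.

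**Figure D3:**
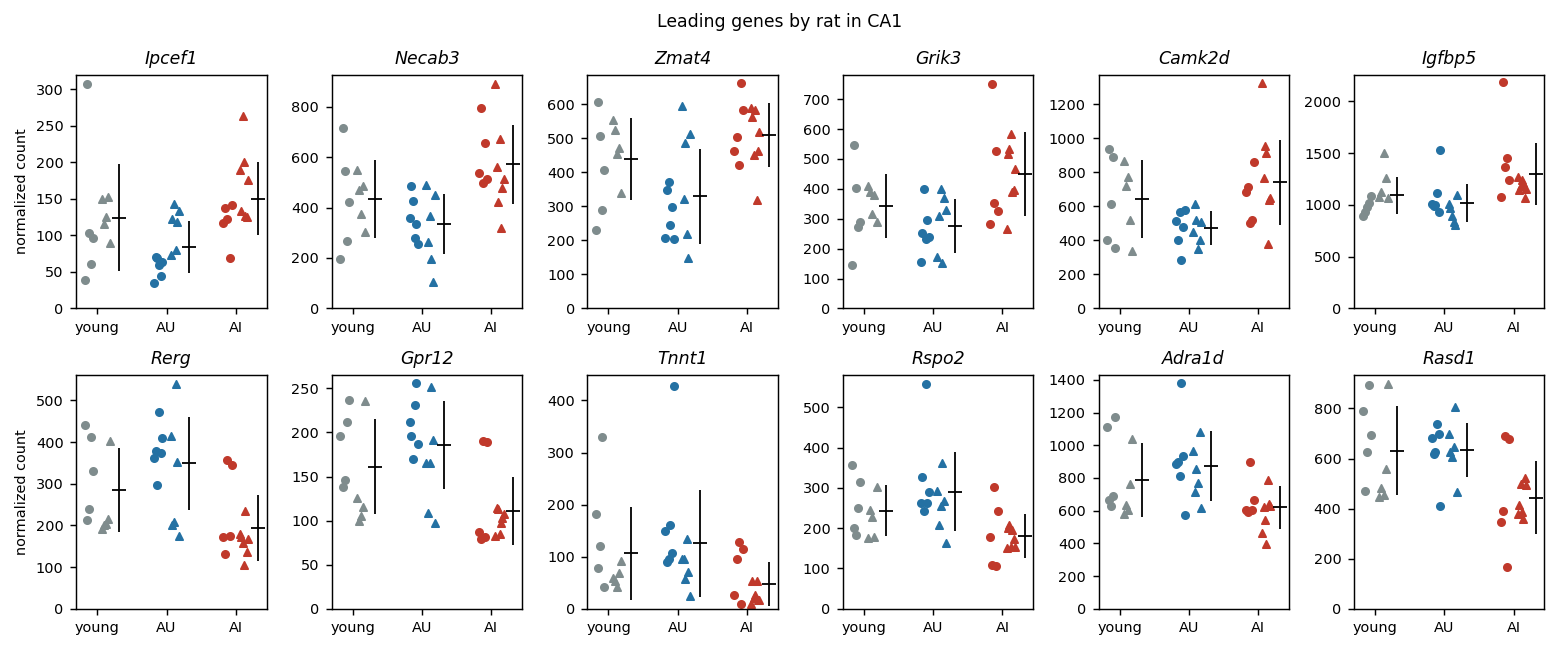
Normalized count of 12 genes in the CA1 library of each rat, for young, AU and AI rats. The 6 genes with the smallest p among those higher in AI are in the top row and the 6 among those lower in AI are in the bottom row. Circles are rats of the R9 series, triangles rats of the R1-R2 series, and black bars the mean ± SD (n = 10, 12 and 12). In every panel the AI and AU points overlap.

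Among the genes with a lower mean in AI rats, Rerg led by p. It encodes a Ras-like, estrogen-regulated GTPase. Its counts were 104 to 357 (median 172) in AI rats, 174 to 540 (median 368) in AU rats and 192 to 441 (median 227) in young rats. None of the 12 AI rats lay above the AU median for Rerg. The highest AI rats (R9872 and R9875, at 357 and 344) lay among the AU rats, and the lowest AU rats (R2237, R2184 and R2185, at 174, 202 and 207) lay among the AI rats. The log2 fold change was −0.82 (95% interval −1.21 to −0.43) with an adjusted p of 0.992 by limma, and it was −0.62 in the 20-library values. Gpr12, a constitutively active receptor that raises cyclic AMP, had counts of 78.7 to 191 (median 100.3) in AI rats and of 97.7 to 256 (median 189) in AU rats, with 1 AI rat above the AU median. As for Rerg, AI rats R9872 and R9875 (191 and 189) lay among the AU rats and AU rats R2237 and R2184 (97.7 and 108) among the AI rats. The log2 fold change of Gpr12 was −0.73 ± 0.18. Tnnt1, slow skeletal troponin T, had the lowest log2 fold change of the 12, −1.52 ± 0.40, with counts of 8.44 to 127 (median 26.5) in AI rats and of 24.6 to 428 (median 96.2) in AU rats. The AU maximum of Tnnt1 was the library of rat R9869, and its log2 fold change was −0.97 in the 20-library values, a value that moved by more than 1.5 times.

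Adra1d, Prkca, Rasd1, Rspo2 and Arpc2 were also among the leading genes in this direction. Adra1d, the alpha-1D adrenergic receptor, had counts of 399 to 899 (median 614) in AI rats and of 570 to 1382 (median 870) in AU rats. Its log2 fold change was −0.47 ± 0.13 and −0.47 in the 20-library values, so the 4 libraries did not move it. Prkca, protein kinase C alpha, had counts of 980 to 1928 (median 1257) in AI rats and of 1337 to 2266 (median 1798) in AU rats, with 2 of 12 AI rats above the AU median and a log2 fold change of −0.35 ± 0.11. Rasd1, a Ras-related GTPase induced by glucocorticoids, had counts of 168 to 689 (median 401) in AI rats and of 412 to 804 (median 636) in AU rats, with a log2 fold change of −0.58 ± 0.17. Rspo2, a secreted enhancer of Wnt signalling, had a log2 fold change of −0.67 ± 0.18. It had counts of 105 to 301 (median 175) in AI rats and of 164 to 558 (median 265) in AU rats. Arpc2, a subunit of the actin-nucleating Arp2/3 complex, had mean counts of 1950.2 ± 247 in AI and 2656 ± 826 in AU rats (SD, n = 12 each), and no AI rat exceeded the AU median. The remaining genes of the 12 were Strip2, a striatin-interacting protein, Arl15, an ARF-like GTPase, Raver2, an RNA-binding protein, and Ttc16, a tetratricopeptide repeat protein, with log2 fold changes of −0.69, −0.60, −0.40 and −1.37. Ttc16 was at a low level, with a median of 8.09 counts in AI and 16.2 in AU rats.

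Without the 4 libraries that stood apart all 24 leading genes kept their sign, 20 of them had a value closer to 0, and 23 had an unadjusted p under 0.05. The exception was Ttc16, with an unadjusted p of 0.0734 by limma. For 6 of the 24 the value moved by more than 1.5 times, namely Necab3, Ncald, Sytl1 and Tnnt1, as given above, and Zmat4 and Ttc16, to 0.39 and −0.74. The 20-library log2 fold changes were 0.58 for Camk2d, 0.36 for Igfbp5, 0.74 for Tmem163, 0.77 for Tshz3, 0.56 for Ntng1 and 0.68 for Cckbr. They were −0.55 for Gpr12, −0.52 for Rspo2, −0.44 for Rasd1, −0.71 for Strip2, −0.50 for Arl15, −0.32 for Arpc2, −0.42 for Prkca and −0.36 for Raver2. The values of these genes were thus mostly smaller on the 20 libraries, and none passed the adjusted threshold with limma. With AI R9870 and AU R9865 left out as well, the log2 fold changes were 0.45 for Cckbr, 0.55 for Tshz3 and 0.47 for Grik3. They were −0.30 for Rspo2, −0.46 for Rerg, −0.43 for Gpr12, −0.33 for Arl15 and −0.39 for Adra1d. Ntng1 (0.58), Ncald (0.24) and Strip2 (−0.73) stayed near their 20-library values.

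The 24 leading genes were then described by measures that their choice did not use. The mean of the young rats lay between the AI and the AU mean for all 24, compared with 4743 of the 16406 genes tested. Genes chosen for a wide gap between AI and AU leave more room for another mean to fall between. In young rats, 11 of the 12 genes with higher means in AI and 5 of the 12 with lower means were more abundant in CA1 than in CA3, with 47.4% of all genes tested. Against DG the counts were 6 and 5 of 12, with 52.8% of all genes, so the genes higher in AI were not mostly above DG. The counts against CA3 depended on the identifier series of the 5 young rats used. They were 9 and 11 among R9 rats (46.8% of all genes) and 11 and 3 among R1-R2 rats (50.5%). Tnnt1 was 0.34 above CA3 among young R9 rats and −2.93 against it among young R1-R2 rats, and Rerg was at 0.59 and −1.44. Zmat4 was at 0.20 and 1.97, Tshz3 at 0.52 and 1.27, and Arpc2 at 0.53 and 0.49, so that of these 5 genes Arpc2 had the most alike values in both series. The study's own list of CA1 genes for impairment, which was chosen on these samples and is not independent evidence, held 13 of the 24. The paper took genes with a DESeq2 p under 0.01 from Illumina sequencing of the same RNA. It kept those with a p under 0.05 on the Ion Proton, tested only in the Illumina direction. The limma test here covered both directions with the identifier series as covariate, so it does not repeat that rule. Of the 106 listed genes with an identifier used here, 103 were tested, and none passed the adjusted threshold with limma. At an unadjusted p under 0.05, 31 were higher and 25 lower, where the background was 1.80% and 0.817%. Without the 4 libraries, 68 genes of the list were at that level, where the background was 1.60% and 1.50%.

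The direction of the leading genes was alike in both identifier series, although the choice on the pooled rats favours this. All 24 had the same sign in both. The test of the difference between series gave 0 of 16406 genes past the adjusted threshold with limma, with a smallest adjusted p of 0.861. At an unadjusted p under 0.05 there were 582 genes (3.55%), and 231 in the 20-library values. Both were below the share of 0.05 expected with no difference. Among the 24 genes the smallest unadjusted p of that difference was 0.0183, for Ntng1. The genes with the smallest p of the difference were Tmem215, Sv2b and Adamts14, with a larger AI minus AU value in the R1-R2 series, and Gabra4, Zfhx4 and Cited2, with a larger value in the R9 series. For Sv2b, a synaptic vesicle glycoprotein, the log2 fold change was −0.62 among R9 rats and 0.50 among R1-R2 rats. Without the 4 libraries these values of Sv2b were −0.63 and 0.21. For Gabra4, the alpha-4 subunit of extrasynaptic GABA-A receptors, they were 0.40 and −0.33, and 0.39 and −0.34 without the 4 libraries. For Cited2, a transcriptional coregulator, they were 0.39 and −0.33, and 0.35 and −0.14 without the 4 libraries. Rats were tested at a site in Arizona and at a site in Florida, with as many aged and as many young rats at each site as there are in each identifier series, but no label ties a rat to a site, so that site and identifier series cannot be told apart here.

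**Figure D4:**
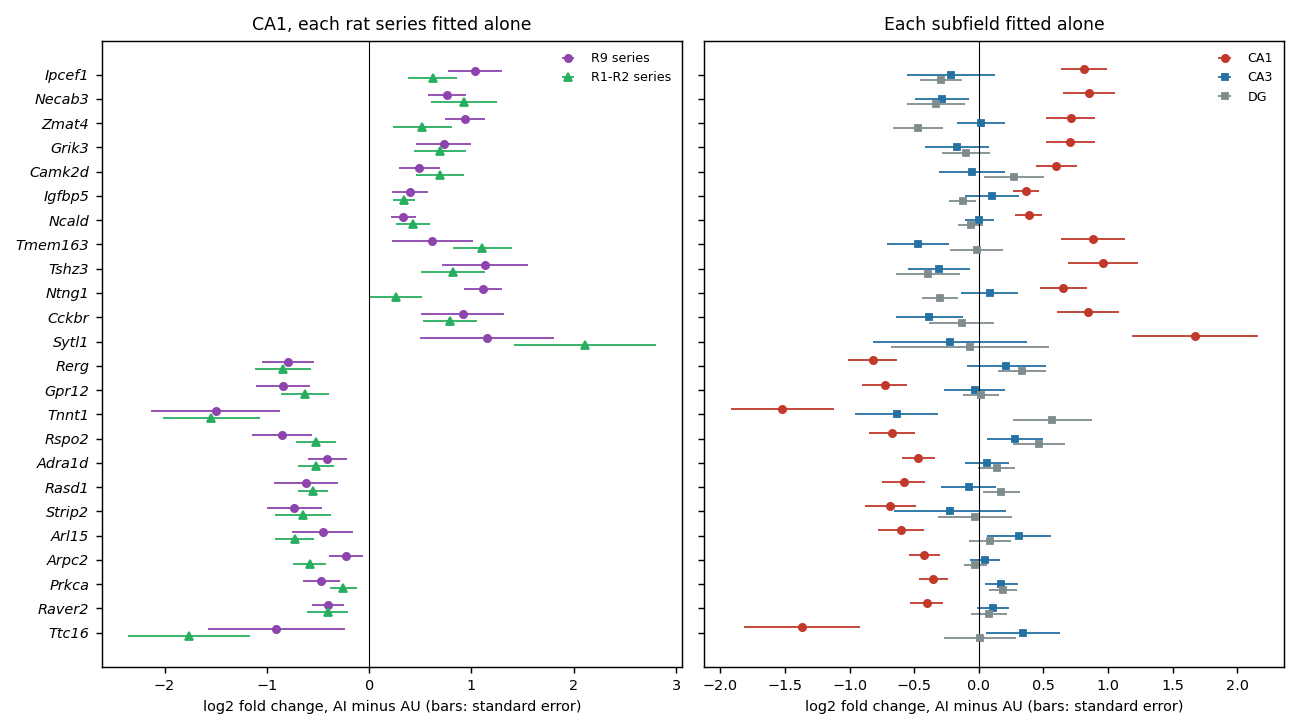
Log2 fold change (AI minus AU) with its standard error for the 24 leading genes. Left, CA1 with each identifier series fitted alone; all 24 have the same sign in both. Right, CA1, CA3 and DG of the same 24 aged rats, each fitted alone; 16 of the 24 have the opposite sign in CA3 (50.4% of all genes) and 21 in DG (55.0%).

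Whether the difference was particular to CA1 was tested within each rat, by subtracting the average of its CA3 and DG log2 values from its CA1 value. With limma, 0 of 16372 genes passed, and the smallest adjusted p was 0.634, for Necab3. At an unadjusted p under 0.05 there were 642 genes (3.92%), and 543 without the 4 rats of those libraries. Both were below the share of 0.05 expected with no difference. For Necab3 the AI minus AU values in CA1, CA3 and DG were 0.85, −0.28 and −0.33, a within-rat difference of 1.16 ± 0.23. For Cckbr the values were 0.85, −0.38 and −0.13, and for Grik3 they were 0.71, −0.17 and −0.10. In CA3 of AU rat R9869, Cckbr was at 520 and Grik3 at 828, against at most 232 and 454 in the other aged CA3 libraries. In DG of AU rat R9865 they were at 473 and 631, against at most 246 and 448 in the other aged DG libraries. Rat R9865 was not among the 4 rats left out. In the other direction Rerg had −0.82 in CA1, 0.21 in CA3 and 0.34 in DG, and Arl15 had −0.60, 0.31 and 0.08. Rerg was lowest in the same CA3 and DG libraries of AU rats R9869 and R9865, at 39.7 and 109. In CA3 of AI rat R1931, Rerg was at 1675 and Arl15 at 644, against at most 914 and 350 in the other aged CA3 libraries. Necab3 was at 63.6 there, against at least 138 in the others. In DG of AU rat R9865 Necab3 was at 1151, against at most 902 in the other aged DG libraries. Rat R1931 was not among the 4 rats left out either. Nsl1, a kinetochore protein, had −1.15 in CA1 and 0.67 in CA3 at a low level of 0 to 17.7 counts in AI and 8.51 to 57.5 in AU rats. The lowest AI rat for Nsl1 was R9874 and the highest AU rat R2232, both among the libraries that stood apart, and its CA1 value was −0.54 without the 4. Without the 4 rats the within-rat differences of Necab3 and Rerg were 0.92 and −0.75. Of the 24 leading genes, 16 had the opposite sign in CA3 and 21 in DG, beside 50.4% and 55.0% of all genes tested, where their log2 fold changes ran from −0.64 to 0.34 and from −0.47 to 0.57.

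Gene lists of CA1 function were read by their counts at an unadjusted p under 0.05 and their medians, since no member of any list passed the adjusted threshold. All functional lists but the immediate early genes hold genes that the study named from these samples, such as Ncald, Hpca, Camk2d, Prkca and Neto1. Such genes numbered 5 on the list of calcium-dependent kinases and phosphatases. There were 4 each on the lists of postsynaptic scaffolds and of potassium channels. Their choice on the same rats favours the counts below, so an excess over all genes is not independent evidence. Over 14 functional lists with 294 tested entries, 20 were higher and 10 lower in AI rats at that level, against 1.80% and 0.817% of all genes and a median of 0.02. Without the 4 libraries 22 were higher and 30 lower, against 1.60% and 1.50% of all genes. Calcium sensors and buffers had 3 higher (Necab3, Ncald and Necab1) and 1 lower (Hpca) of 17, with a median log2 fold change of 0.21. In the 20-library values that median was −0.04, with 4 higher and 1 lower. Hpca, the abundant neuronal calcium sensor hippocalcin, had means of 12511 ± 4042 in AI and 17785 ± 6951 in AU rats (SD, n = 12 each) and a log2 fold change of −0.38, or −0.58 in the 20-library values. Calcium-dependent kinases and phosphatases had 2 higher (Camk2d and Camk1g) and 2 lower (Prkca and Dclk2) of 20, with a median of −0.08. Camk1g moved from 0.42 to 0.23 in the 20-library values. The voltage-gated calcium channel list had Cacnb4, a beta subunit, higher by 0.33 and Rem2, a GTPase that restrains these channels, lower by a log2 value of −0.53, with a median of −0.08 over 15 genes. Atp2b4, a plasma membrane calcium pump, was the single member of 19 calcium store and pump genes at that level over all 24 libraries, with means of 1304 ± 514 in AI and 743 ± 485 in AU rats and a log2 fold change of 0.94. Without the 4 libraries it was joined by Atp2b1, another such pump (−0.28), and Itpr1, the inositol trisphosphate receptor of calcium stores (−0.32), both lower.

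Of 27 ionotropic glutamate receptor genes, Grik3 was higher and Neto1, an auxiliary subunit of kainate and NMDA receptors, was lower (−0.43), with a median of −0.11. On the 20 libraries 1 was higher and 5 were lower, the latter being Neto1, Gria1, Grin2a, Cnih2 and Nptxr at −0.25 to −0.36. Gria1, the AMPA receptor subunit GluA1, had means of 5547 ± 1254 in AI and 6145 ± 1300 in AU rats, a difference within the spread of each group. Of 8 metabotropic receptors, Grm2 had a log2 fold change of 0.66, which was 1.22 among R9 rats and 0.18 among R1-R2 rats. None of 20 postsynaptic scaffolds reached an unadjusted p under 0.05 (median −0.07), with Sipa1l3 at −0.34 and Homer3 at −0.33. On the 20 libraries 1 was higher (Dlg1, 0.22) and 3 were lower (Homer3, −0.50, Sipa1l3, −0.39, and Prickle2, −0.30). Gabra5, the alpha-5 GABA-A receptor subunit of CA1 dendrites, was the single one of 14 GABA receptor genes at that level, at −0.42, and in the 20-library values Gabrd, the delta subunit, was instead, at 0.45. Among 24 monoamine and muscarinic receptor genes, 2 were higher and 3 lower. The serotonin receptor Htr7 and the alpha-2A adrenergic receptor Adra2a were at 0.51 and 0.53, whereas Adra1d and the serotonin receptors Htr6 and Htr1b were at −0.47, −1.22 and −0.47. Htr6 was at −0.40 in the 20-library values.

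Among 40 HCN and potassium channel genes 3 were higher and none lower, namely Hcn4, a pacemaker channel, at 1.29 (0.71 in the 20-library values), Kcna4 at 0.34 (0.17) and Kcnk9 at 0.50 (0.44). The median of that list was 0.01, and in the 20-library values 3 were higher and 2 lower. Rgs4 and Rgs6, which shorten G protein signals, were the 2 higher of 17 RGS genes, at 0.69 and 0.62, and none was lower. On the 20 libraries 2 RGS genes were higher and 2 lower. Of 26 genes for vesicle loading and release, Cplx3, a complexin, was at 1.15 and Slc17a6, the vesicular glutamate transporter VGLUT2, at 0.65. Dgkz, a diacylglycerol kinase, was the single phosphoinositide or diacylglycerol gene of 27 at that level over all 24 libraries, at −0.29. On the 20 libraries 5 were lower, namely Dgkz, Dgka, Plcb1, Itpka and Ippk, at −0.21 to −0.34. Of 20 immediate early genes Btg2 (0.45) and Dusp1 (0.58, or 0.28 in the 20-library values) were higher, and the list median of 0.12 was −0.03 in the 20-library values, with 1 higher and 2 lower (Arc, −0.41, and Dusp6, −0.40).

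**Figure D5:**
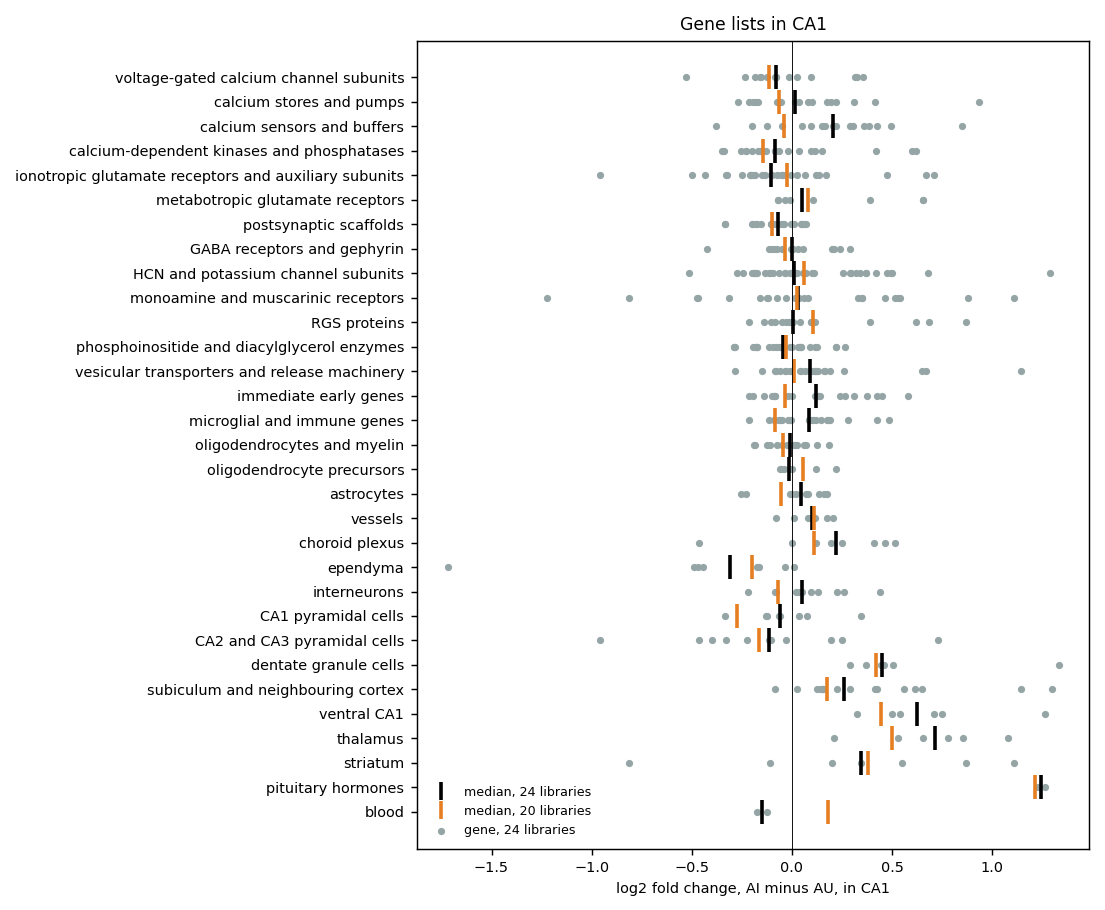
Log2 fold change (AI minus AU) in CA1 for the tested members of 31 gene lists, 1 grey point per gene. Black ticks are list medians over the 24 libraries and orange ticks medians over the 20 libraries without AU R9869, R2230 and R2232 and AI R9874. Medians of the functional lists lie between −0.11 and 0.21 over 24 libraries. Among marker lists, those of thalamus, ventral CA1, dentate granule cells, subiculum, striatum, pituitary hormones, choroid plexus and vessels lie above 0 in both sets.

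Markers of other cell types and of neighbouring tissue were described beside these genes, and their part in the differences was not tested. Of 151 tested entries on 17 marker lists, 8 were higher and 3 lower at an unadjusted p under 0.05. The shares of all genes were 1.80% and 0.817%. Without the 4 libraries 13 entries were higher and 7 lower, against 1.60% and 1.50% of all genes. These counts include CA1 pyramidal and striatal markers, on which the left-out AU R9869 was set apart. Glial, vascular and interneuron lists had medians between −0.01 and 0.10, and of 10 astrocyte genes Gfap, the astrocyte filament protein, was lower, with means of 18792 ± 4672 in AI, 22503 ± 3616 in AU and 14192 in young rats and a log2 fold change of −0.25. None of 22 microglial and immune genes, 14 myelin genes, 7 oligodendrocyte precursor genes, 7 vessel genes, 8 choroid plexus genes and 11 interneuron genes reached that level. Of 8 ependymal genes Tmem212 did, at −1.72, with a list median of −0.31.

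Markers of the thalamus, ventral CA1, dentate gyrus and subiculum had positive medians. Thalamic markers summed to 865 to 3893 (median 1078) in AI rats and to 572 to 1153 (median 814) in AU rats, and all 6 tested members had positive log2 fold changes with a median of 0.72. Of these, Ntng1 is also one of the leading genes, and Prkcd, protein kinase C delta, was at 0.78 with an AI maximum of 1871 and an AU maximum of 329. The 6 ventral CA1 markers summed to 814 to 4226 (median 1745) in AI rats and to 667 to 1933 (median 1076) in AU rats, with a median log2 fold change of 0.63. Grp, gastrin-releasing peptide, was at 1.26 over all rats, at −0.22 among R9 rats, at 2.52 among R1-R2 rats and at 0.53 in the 20-library values. Dentate granule cell markers had a median of 0.45 over 6 genes, none at an unadjusted p under 0.05, and Prox1, the granule cell transcription factor, had means of 553 ± 258 in AI and 429 ± 246 in AU rats. Subicular and cortical markers had 4 of 16 higher, namely Cplx3, Foxp2, Tbr1 and Slc17a6, against 1.80% of all genes. The study's own CA1 list, chosen on these samples, holds 3 genes of this marker list. The median of the marker list was 0.26, with sums of 5487 to 11965 in AI and 4894 to 13357 in AU rats. In the 20-library values the medians of these 4 lists were 0.50, 0.44, 0.42 and 0.17.

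Values of the CA1 pyramidal markers depended on the libraries left out. Over all 24 libraries none of 8 reached an unadjusted p under 0.05, and the median log2 fold change was −0.06. Wfs1 ranged from 3031 to 6472 (median 5245) in AI and from 1177 to 13265 (median 6943) in AU rats, the lowest being rat R9869, and its log2 fold change was −0.13 ± 0.29. In the 20-library values 4 of the 8 were lower at that level, against 1.50% of all genes. These were Wfs1 by −0.61, Fibcd1 by −0.60, Gpr161 by −0.43 and Mpped1 by −0.29, and the list median was −0.27. None of the 8 passed the adjusted threshold with limma. AU R9869 was left out partly for its low level of these same markers, which raises the AU mean by construction. The 20-library values are therefore no support for a lower level in AI rats. Striatal markers, on which AU R9869 was also set apart, had a median of 0.34, or 0.38 in the 20-library values. Of 11 CA2 and CA3 pyramidal markers Pvrl3 was lower, at −0.46, with a list median of −0.12, and in the 20-library values 3 were higher and 2 lower. Of the pituitary hormone genes 2 were tested, with Pomc at 1.23 and at most 28.4 counts in any AI rat, and of blood genes 2, with a median of −0.15, or 0.18 in the 20-library values.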

How the data were processed

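Poly-A RNA of CA1, CA3 and DG was sequenced on an Ion Proton. Per the labels and the methods, the authors aligned reads to rn5 with TopHat2 and Bowtie2, counted them per gene with featureCounts 1.4.4 and deposited DESeq2-normalized counts (a signal: reads divided by a size factor). All values of a library were whole multiples of 1 unit, so reads were recovered (100% whole within 1e-06 reads). Of 26689 genes, 21970 were named in the deposited table, 453 were named from the study's supplementary tables and 4266 had no name. Genes with a mean of at least 5 were tested with limma 3.58.1 (lmFit, eBayes with trend, two-sided) on log2(normalized count + 1) with the identifier series as covariate and Benjamini-Hochberg adjustment, at a threshold of 0.05. R 4.3.3, edgeR 4.0.16 and DESeq2 1.42.0 (with a prior on fold changes and size factors recovered from the deposited values) ran on the recovered reads as alternatives. Code was tested on simulated data. The 3 libraries of a rat come from 1 animal, so the test against CA3 and DG was paired within rats; the mean correlation of deviations from the group means was 0.084 between CA1 and CA3 and 0.053 between CA1 and DG. Named genes are the 12 with a symbol and the smallest p in each direction, up to 4 per list (1 marker gene is not reported here), and 3 in each direction for the other tests. Group members, lists and tests were chosen with earlier results of these data known. Fits without AU R9869, AU R2230, AU R2232, AI R9874, AI R9870 or AU R9865 were chosen after the data were seen.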

Additional observations from a re-analysis of the deposited data

Results flagged for a closer look

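Within each status and identifier series, 168 groups of 5 to 7 libraries were examined for a rat far from the rest, and 14 were flagged, where chance flags about 1 in 20 groups. AU rat R9869 was highest for Igfbp5 (1527, others 930.2 to 1110), highest for Tnnt1 (428, others 90.5 to 161), lowest for Rasd1 (412, others 618 to 738) and highest for the striatal markers (12419, others 889 to 1432). AU rat R1930 was highest for Strip2 (1478, others 402 to 553) and for Prkca (1952, others 1337 to 1456). AU rat R9865 was highest for Rspo2 (558, others 242 to 328) and, with 140351, for the choroid plexus sum (others 136 to 22521). AI rat R9870 was highest for the choroid plexus sum (174512, others 140.0 to 931) and for the ventral CA1 sum (1925, others 814 to 1092). AI rat R2231 was highest for Sytl1 (42.6, others 4.4 to 18.7) and for the choroid plexus sum (10959, others 31.9 to 408). AI rat R9872 was highest for Adra1d (899, others 590 to 666), and AU rat R2230 for the myelin sum (144912, others 86976 to 105383). Values are normalized counts.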

How the results depend on the processing

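With limma, 0 genes passed the adjusted threshold for AI against AU in CA1 under every alternative that kept all 12 rats a group or left out 1 rat or 1 series (pseudocounts, filters, TMM rescaling, no series covariate, 3 added covariates, each series alone, and each of the 24 rats left out, range 0 to 0), and edgeR gave 0. DESeq2 on the recovered reads gave 1, or 0 without the series covariate, and 8 without the 4 libraries. Genes at an unadjusted p under 0.05 numbered 430, and 312 to 567 with 1 rat left out. With no filter on low values they numbered 664 for AI against AU, 888 for the difference between series and 972 for CA1 beyond CA3 and DG. Without the 4 libraries the difference between series had 231. The within-rat test keeps the rat as a block, and with no replicate block 0 genes passed and 698 had an unadjusted p under 0.05, against 642. The 24 leading genes kept their sign in all 478 values under the other 20 alternatives and in all 576 with 1 rat left out. Of these, 2 values passed an adjusted p of 0.05, both for Ipcef1 with DESeq2. The median of the calcium sensor list was 0.21, and −0.01 without AI R9874, AU R2230 and AU R2232. TMM moved the median of all genes by −0.0004. The median standard error of 0.19 limits what 12 rats a group can show. The cause of these shifts was not tested.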

Other observations

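The 8 genes that DESeq2 called in the 20-library values, named after their values were seen, included Ipcef1, Ecel1 and Lrrtm3 with higher means and Spata18 and Mir138-1 with lower means in AI rats. Lrrtm3, a synaptic adhesion protein, had counts of 303 to 708 (median 421) in AI rats and of 204 to 800 (median 346) in AU rats over all 24 libraries. Its log2 fold change with limma was 0.28 over 24 libraries and 0.45 over 20, with 0.60 among R9 rats and 0.01 among R1-R2 rats. Spata18, which takes part in mitochondrial quality control, had counts of 13.3 to 66.6 (median 19.4) in AI rats and of 0 to 84.8 (median 56.9) in AU rats, with log2 fold changes of −0.56 over 24 and −0.93 over 20 libraries. Ecel1, an endopeptidase of the neprilysin family, had 0 to 73.5 counts in AI rats and 0 to 382 in AU rats. With limma the adjusted p of these genes over 20 libraries lay between 0.535 and 0.639.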
